A study of Mus musculus with 4 samples.

Results

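Small leucine-rich proteoglycans (SLRPs) are secreted matrix proteins, and their genes Bgn, Dcn, Aspn, Lum, Fmod, Prelp and Ogn were followed here together with Dpt and Islr in muscle stem cells. The 9 genes were taken by their listed symbols from 31055 features, in a list drawn up with earlier results of these data known. The cells were sorted by GFP from mice of the Tg:Pax7-nGFP strain, 2 to 4 months old, in which a nuclear GFP is driven by Pax7, the transcription factor that marks muscle stem cells. Their source was either the muscles around the eyeball (extraocular, EOM) or a lower leg muscle, the tibialis anterior (TA). Quiescent cells were processed straight after the sort. Activated cells were first grown for 4 days on Matrigel in growth media at 3% oxygen, then lifted off with trypsin. Each of these 4 groups was 1 droplet library (10x Genomics), and every group carries the transgene. The number of animals behind a library is not given in the sources used here. There was no replicate, so no test between groups was made, and all intervals are 95% intervals that cover counting error only.

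SLRPs fold into an arch of leucine-rich repeats that binds collagen fibrils, and many carry glycosaminoglycan chains. Class I members (biglycan, Bgn; decorin, Dcn; asporin, Aspn) also bind TGF-beta, class II members (lumican, Lum; fibromodulin, Fmod; prolargin, Prelp) bind fibrillar collagen, and osteoglycin (Ogn) belongs to class III. Dermatopontin (Dpt) is a small matrix protein without leucine-rich repeats that binds decorin. Islr, also called Meflin, holds leucine-rich repeats and an immunoglobulin domain and is known as a marker of mesenchymal stromal cells. In muscle, most of these genes are known from fibroblasts and tendon cells, with biglycan and Islr also described in myogenic cells.

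In the GRCm38 assembly several of the genes share a chromosome. Dcn (ENSMUSG00000019929, chr10:97479609-97518143) lies beside Lum (ENSMUSG00000036446, chr10:97565128-97572703), and Omd lies between Aspn (ENSMUSG00000021388, chr13:49544443-49567565) and Ogn (ENSMUSG00000021390, chr13:49608046-49624501). Prelp (ENSMUSG00000041577, chr1:133910304-133921414, minus strand) and Fmod (ENSMUSG00000041559, chr1:134037254-134048277) share chromosome 1 with Dpt (ENSMUSG00000026574, chr1:164796644-164824266). Bgn (ENSMUSG00000031375, chrX:73483602-73495933) and Islr (ENSMUSG00000037206, chr9:58156268-58204306, minus strand) are alone on theirs. All 9 are protein-coding genes in GENCODE vM21. Aspn and Ogn overlap Cenpp on the other strand, Islr overlaps Islr2 on its own strand, and Prelp and Dpt overlap Gm15851 and Gm32569 on the other strand. How strand was used in counting is not given in the sources used here, so reads of these overlapping pairs may not be fully separated.

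The promoters of Bgn, Islr and Ogn are shown because these 3 genes stayed measurable in activated cells and stood on opposite sides of the Myog comparison described further on. Each line is the 250 bases before the RefSeq start (GRCm38.p6), 5′ to 3′ on the gene's own strand: chrX:73483351-73483600 for Bgn, chr9:58158555-58158804 on the minus strand for Islr, and chr13:49607765-49608014 for Ogn. Capitals mark E-boxes (CANNTG), the motif that myogenic factors such as MyoD and myogenin are known to bind.
Bgn: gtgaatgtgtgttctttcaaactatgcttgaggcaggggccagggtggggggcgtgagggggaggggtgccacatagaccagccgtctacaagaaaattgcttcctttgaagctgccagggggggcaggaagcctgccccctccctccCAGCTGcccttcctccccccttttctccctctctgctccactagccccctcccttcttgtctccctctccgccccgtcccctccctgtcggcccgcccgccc
Islr: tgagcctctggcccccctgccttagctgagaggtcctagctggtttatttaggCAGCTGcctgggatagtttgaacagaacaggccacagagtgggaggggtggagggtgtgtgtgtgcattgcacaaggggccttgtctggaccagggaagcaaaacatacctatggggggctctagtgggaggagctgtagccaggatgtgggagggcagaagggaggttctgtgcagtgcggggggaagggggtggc
Ogn: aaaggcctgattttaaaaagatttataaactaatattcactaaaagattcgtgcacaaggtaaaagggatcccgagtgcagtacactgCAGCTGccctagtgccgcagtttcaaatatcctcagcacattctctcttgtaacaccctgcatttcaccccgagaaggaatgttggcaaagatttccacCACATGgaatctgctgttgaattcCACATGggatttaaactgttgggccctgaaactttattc
Bgn held 1 E-box, whose first base was at -102 from the start, Islr held 1 at -197, and Ogn held 3 at -162, -63 and -39. The same search found an E-box in 66.2% of 32817 RefSeq promoters of this length, so its presence sets none of the 3 apart. Bgn also held 3 Sp1 motifs (GGGCGG, both strands; in 32.7% of promoters), of which the pair nearest the start overlapped. Ogn held 2 overlapping TATAAA motifs far from its start, at -229 and -227 (12.4% of promoters), and 1 TEAD motif (GGAATG, 12.6%). None of the 3 windows held an AP-1 motif (TGANTCA, 6.75%) or CCAAT (33.8%). The share of G and C was 64.4% for Bgn, 59.6% for Islr and 42% for Ogn. For Islr, the GENCODE gene reaches further upstream than this start, so the window lies inside its annotated span. RefSeq promoters were matched for 7 of the 9 genes, all but Dcn and Lum.

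Cells kept numbered 3596 (EOM) and 2902 (TA) in quiescence and 5566 and 4284 after culture, with 15286796 to 122868688 UMIs (unique molecular identifiers, the counted RNA molecules) per library. A median cell held 4664 and 5030 UMIs in the quiescent and 21284 and 23364.5 in the activated libraries. Levels are given as CPM, the gene's UMIs per 1000000 UMIs of the library. Quiescent TA stood apart by its mitochondrial share: 40.5% of its barcodes were over the limit of 10%, against 11.7% to 24.7% in the other libraries. Pairs of libraries shared 3 to 6 barcode sequences among kept cells. All 8 muscle stem cell markers were at 5 CPM or more in both quiescent libraries and 6 of 8 in the activated ones, with Pax7 at 287 and 387 CPM in quiescent and 75.4 and 55.1 CPM in activated cells, EOM first. The other 2, Chodl and Calcr, were at 1068 and 993 CPM and at 65.0 and 53.2 CPM in quiescent cells and at 0.156 CPM or less in activated ones. A cluster of 126 quiescent TA cells had the macrophage C1q genes and Dcn among its leading genes; it was left unnamed and kept.

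**Figure D1:**
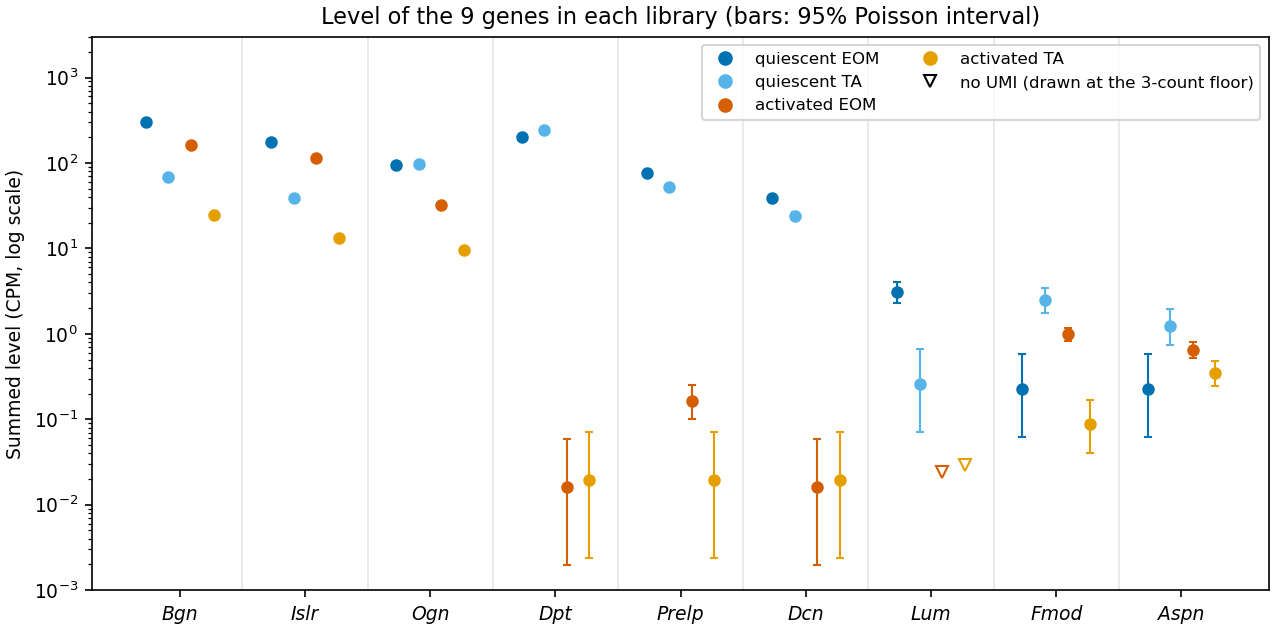
Level of each of the 9 genes (CPM, log axis) in the 4 libraries, with 95% Poisson intervals as bars; open triangles mark 0 UMIs, drawn at the limit of 3 counts. Bgn and Islr sit higher in EOM than in TA in both states, Dpt and Prelp are near 0 in both activated libraries, and Lum, Fmod and Aspn are under 5 CPM everywhere.

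Bgn was found in all 4 libraries and was higher in EOM in both states. Its level was 302 CPM in quiescent EOM (5286 UMIs), 69.3 in quiescent TA (1060 UMIs), 161 in activated EOM (19790 UMIs) and 24.5 in activated TA (2514 UMIs). Quiescent EOM was thus the highest library and activated TA the lowest, and no neighbours in this order had overlapping intervals. The ratio of EOM to TA was 4.36 (4.08 to 4.66) in quiescent and 6.57 (6.30 to 6.85) in activated cells. Activated cells were at 0.533 (0.517 to 0.550) of the quiescent level in EOM and at 0.354 (0.329 to 0.381) in TA.

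Islr had the same order of libraries as Bgn. Its level was 177 CPM in quiescent EOM (3101 UMIs), 38.9 in quiescent TA (595 UMIs), 115 in activated EOM (14146 UMIs) and 13.3 in activated TA (1359 UMIs), and again the intervals did not overlap. Its EOM to TA ratio was 4.55 (4.17 to 4.98) in quiescent cells. In activated cells it was 8.68 (8.21 to 9.18). The activated to quiescent ratio was 0.650 (0.625 to 0.676) in EOM and 0.341 (0.309 to 0.376) in TA, so the activated EOM library kept more of its quiescent level than the TA library did. With 1 library each, that difference has no test. The neighbouring paralog Islr2 was at 1.03 CPM or less in every library.

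Ogn did not follow that order. Its quiescent levels were 94.99 CPM in EOM (1662 UMIs) and 96.6 in TA (1477 UMIs), and their intervals overlapped (ratio 0.983, 0.916 to 1.06). In activated cells it was at 31.9 CPM in EOM (3922 UMIs) and 9.49 in TA (972 UMIs), a ratio of 3.37 (3.14 to 3.61). For Ogn the muscles were thus within counting error of each other in quiescence and apart after culture. Activated cells held 0.336 (0.317 to 0.356) of the quiescent level in EOM and 0.0982 (0.0904 to 0.107) in TA.

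Dpt and Prelp were genes of the quiescent state. Dpt was at 202 CPM in quiescent EOM (3531 UMIs) and 244 in quiescent TA (3728 UMIs), a ratio of 0.828 (0.790 to 0.867), and each activated library held 2 UMIs. The activated to quiescent ratio rests on those UMIs: 8.07e-05 (9.76e-06 to 0.000292) in EOM and 8.00e-05 in TA. Prelp was at 77.3 CPM in quiescent EOM (1352 UMIs) and 52.3 in quiescent TA (799 UMIs), a ratio of 1.48 (1.35 to 1.62). It had 20 UMIs in activated EOM, which is 0.163 CPM and 0.00211 (0.00128 to 0.00327) of the quiescent level, and 2 UMIs in activated TA.

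Dcn differed from these 5 genes in how its UMIs were spread over cells. It was at 38.6 CPM in quiescent EOM (675 UMIs) and 24.1 in quiescent TA (369 UMIs), and each activated library held 2 UMIs. A single cell held 292 of the UMIs in EOM (43.3%) and 302 in TA (81.8%). The next cells held 80 and 36. In all, 132 EOM and 31 TA cells had a Dcn UMI, most of them 1 (75 and 27 cells), and 20 and 2 cells had 5 or more. Dropping the top cell of each library lowered Dcn to 21.9 CPM (EOM) and 4.38 CPM (TA), so the quiescent EOM to TA ratio, 1.60 (1.41 to 1.82) over all cells, rests on those cells. The log2 ratio, on the log2(CPM + 1) scale used for every log2 value here, was 0.65 over all cells. Without the top cells it was 2.09, and without the mixed cluster of quiescent TA it was 2.83. All 302 Dcn UMIs of that cluster were in the top TA cell. Dropping the cluster thus removes the same TA cell and keeps the top EOM cell.

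The top Dcn cells carried other members too. The EOM cell had 9967 UMIs in all, with 43 of the library's 54 Lum UMIs, 6 Bgn UMIs, 7 of the collagen gene Col1a1, all 4 of the library's UMIs of Pdgfra, a receptor that marks fibroblasts, and 1 Pax7 UMI. The TA cell had 4559 UMIs in all, with 29 of the library's 38 Fmod UMIs, 11 Prelp, 14 Ogn, 14 Col1a1 and 2 Lum UMIs, and no Pax7 or Pdgfra UMI. Apart from the EOM cell, Lum was all but absent: 11 UMIs in quiescent EOM, 4 in quiescent TA and 0 in both activated libraries, where 3 counts would be 0.0244 CPM in EOM and 0.0293 in TA. Which cells these are was not tested.

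**Figure D2:**
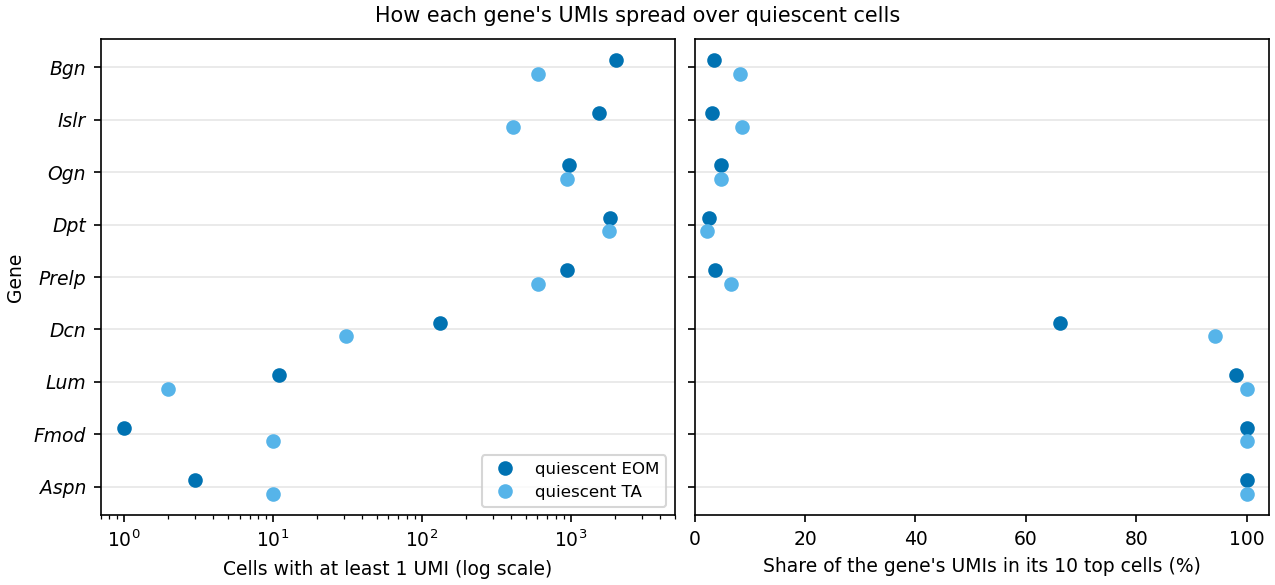
For each gene in the 2 quiescent libraries, the number of cells with at least 1 UMI (left, log axis) and the share of the gene's UMIs held by its 10 top cells (right). The 5 genes from Bgn to Prelp lie in 411 to 2022 cells with at most 8.57% of UMIs in 10 cells, while Dcn has 66.2% and 94.3% there and Lum, Fmod and Aspn 98.1% or more.

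Fmod and Aspn stayed low. Fmod had 4 UMIs in quiescent EOM, all in 1 cell, 38 in quiescent TA, 121 in activated EOM and 9 in activated TA. Outside the single TA cell the highest level was thus that of activated EOM, 0.985 CPM over 103 cells with at most 3 UMIs in any of them, against 0.0878 CPM in activated TA (ratio 11.2, 5.71 to 25.1). Aspn had 4, 19, 80 and 36 UMIs in the same order of libraries, 9 of the 19 in 1 quiescent TA cell, and its activated EOM to TA ratio was 1.85 (1.24 to 2.83). Both were under 5 CPM in every library, where a 2-fold call was not attempted.

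The calls were set against all features, as a description of these libraries. A gene was called 2-fold apart when its log2 ratio was at least 1 in size and it reached 20 CPM in either library. In quiescent cells 2 of 6 measurable members were at least 2-fold higher in EOM (Bgn and Islr) and 0 lower, where 2.84% of 5425 features were higher and 2.51% lower. The other 4 (Ogn, Dpt, Prelp and Dcn) were under 2-fold apart. The median log2 ratio of the 6 was 0.60, against 0.06 over all features. Without the top cell of each gene, or without the mixed quiescent TA cluster, Dcn joined Bgn and Islr, so that 3 of 6 were higher. The median of the 6 was then 1.33 or 1.42. The cluster was dropped on the TA side only, and all its Dcn UMIs were in the top TA cell. For Dcn both settings thus drop the same TA cell, and the second keeps the top EOM cell. A quiescent EOM cluster of 422 cells, with Lum, Dcn and Col1a1 among its leading genes, was kept. It held 59.3% of that library's Dcn UMIs. Of its 400 Dcn and 44 Lum UMIs, 292 and 43 were in the top EOM cell. In this cluster Bgn was at 477 CPM and Islr at 291 CPM. Counts without it were not taken. In activated cells all 3 measurable members were higher in EOM (Bgn, Islr and Ogn), where 1.94% of 5297 features were higher and 0.906% lower, and the medians were 2.67 and -0.02. No test backs these counts, since each rests on 1 library a group. The median-of-ratios scaling moves every quiescent EOM to TA ratio by -0.13 on the log2 scale, which leaves the calls as they are.

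In the comparisons between states the genes were lower in culture, among many genes that were. Of 6 measurable members 4 were at least 2-fold lower in activated than in quiescent EOM (Ogn, Prelp, Dpt and Dcn) and 0 higher, where 24.0% of 6423 features were lower and 27.0% higher. In TA all 6 were lower, Bgn and Islr included, where 24.2% of 6302 features were lower and 29.9% higher. The member medians were -3.41 in EOM and -3.92 in TA, against 0.14 and 0.21 over all features. Dcn's place in the TA count rests on 1 cell: without it 5 members were measurable and all 5 were lower (median -3.23). TMM scaling raises every activated to quiescent log2 ratio by 0.40 in EOM and 0.28 in TA, and Bgn and Islr in EOM were then at -0.51 and -0.23, against -0.90 and -0.62. The comparisons share libraries with each other, so they are not independent.

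Shares of cells were compared after each cell had been thinned at random to 2000 UMIs. Shallower cells were left out, 82 and 57 from the quiescent and 31 and 47 from the activated libraries, EOM first in each pair. In the same order Bgn was found in 36.6% (35.0 to 38.2), 10.3% (9.21 to 11.5), 25.1% (23.9 to 26.2) and 4.48% (3.88 to 5.15) of cells. Islr was found in 25.2%, 5.87%, 18.9% and 2.34%. For both genes, EOM exceeded TA by a wide margin in share as well as in level. Without thinning the Bgn shares were 56.2%, 21.0%, 74.4% and 26.0% and the Islr shares 43.2%, 14.2%, 64.5% and 16.4%, so the deeper activated libraries appeared richer than at matched depth.

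The shares of Ogn were 14.4% (EOM) and 15.7% (TA) in quiescence and 6.32% and 2.41% after culture. Dpt was found in 30.2% and 36.3% of quiescent cells and in none of 5535 and 4237 activated cells, which by 3 counts of the total allows shares of up to 0.0542% and 0.0708%. Prelp was found in 13.2% and 9.81% of quiescent cells and in 5 and 0 activated cells. These shares follow the order of the summed levels. Dcn was found in 69 quiescent EOM cells and 10 quiescent TA cells. Endothelial-like cells, 16 in number, had been set aside from quiescent TA, and 13 of them reached 2000 UMIs and gave a measure of free RNA (median depth 7804 UMIs, against 5067 for the muscle cells thinned there). Bgn, Islr and Ogn were in 0 of these 13 cells, which on the same rule allows up to 23.1%, and Dpt and Prelp in 1, or 7.69% (0.195 to 36.0). That reference is too small to set a background for any of the genes, and of the TA shares above all but that of Dpt lie within its limit or interval.

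Some cells held several of the genes at once. At 2000 UMIs, 905 of 3514 quiescent EOM cells held 2 of the 9 genes, 307 held 3, 63 held 4 or more and 952 held none (27.1%). In quiescent TA 405 of 2845 cells held 2, 78 held 3, 10 held 4 or more and 1202 (42.2%) held none. After culture 3221 of 5535 EOM cells (58.2%) and 3859 of 4237 TA cells (91.1%) held none. Bgn and Islr were found together in 382 quiescent EOM cells, against 324 if they were unrelated, and in 382 activated EOM cells against 262, a ratio of 1.46. Bgn and Ogn met less often than that in activated EOM, in 56 cells against 87.8 (ratio 0.638), and about as often in quiescent EOM, in 168 against 185. Bgn and Prelp met in 231 quiescent EOM cells against 170. These counts describe cells of 1 library each, which share their source.

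Within activated EOM, Bgn and Islr were found more often in cells with Pax7 and less often in cells with Myog, which encodes myogenin, the factor that marks entry into differentiation. All counts were taken from the same cells thinned to 2000 UMIs, so a cell without a UMI of a marker is not shown to lack it. Bgn was in 36.4% of 695 cells with a Pax7 UMI and 23.5% of 4840 without (ratio 1.55, 1.39 to 1.73). Islr was in 32.1% and 17.0% (1.89, 1.67 to 2.14). By Myog the order was the other way: Bgn was in 15.3% of 2758 cells with a Myog UMI and 34.8% of 2777 without (0.440, 0.397 to 0.487), and Islr in 9.79% and 27.9% (0.351, 0.309 to 0.399). Without thinning the same ratios by Myog were 0.835 for Bgn and 0.733 for Islr.

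Ogn had the opposite pattern in the same library. It was in 3.45% of cells with and 6.74% of cells without Pax7 (ratio 0.513, 0.341 to 0.770), and in 8.92% of cells with and 3.75% without Myog (2.38, 1.91 to 2.98; 1.40 without thinning). Thus the 3 measurable members split, with Bgn and Islr on the Pax7 side and Ogn on the Myog side. The few cells of the low genes divided likewise: of 9 cells with Fmod 1 had Myog, and all 4 cells with Aspn had it, numbers too small for a ratio. Activated TA had the same directions at much lower shares. By Myog the ratios there were 0.639 (0.484 to 0.843) for Bgn, 0.461 (0.311 to 0.685) for Islr and 4.89 (2.69 to 8.91) for Ogn. By Pax7, Islr was at 2.22 (1.36 to 3.62) with 2000 UMIs a cell, 2.11 (1.60 to 2.77) with 5000 and, the other way, 0.428 with 1000. The intervals of Bgn (0.890 to 2.05) and Ogn (0.257 to 1.32) included 1 at 2000 UMIs, and at 5000 UMIs Bgn was at 1.54 (1.25 to 1.89) and Ogn at 0.360 (0.213 to 0.608).

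**Figure D3:**
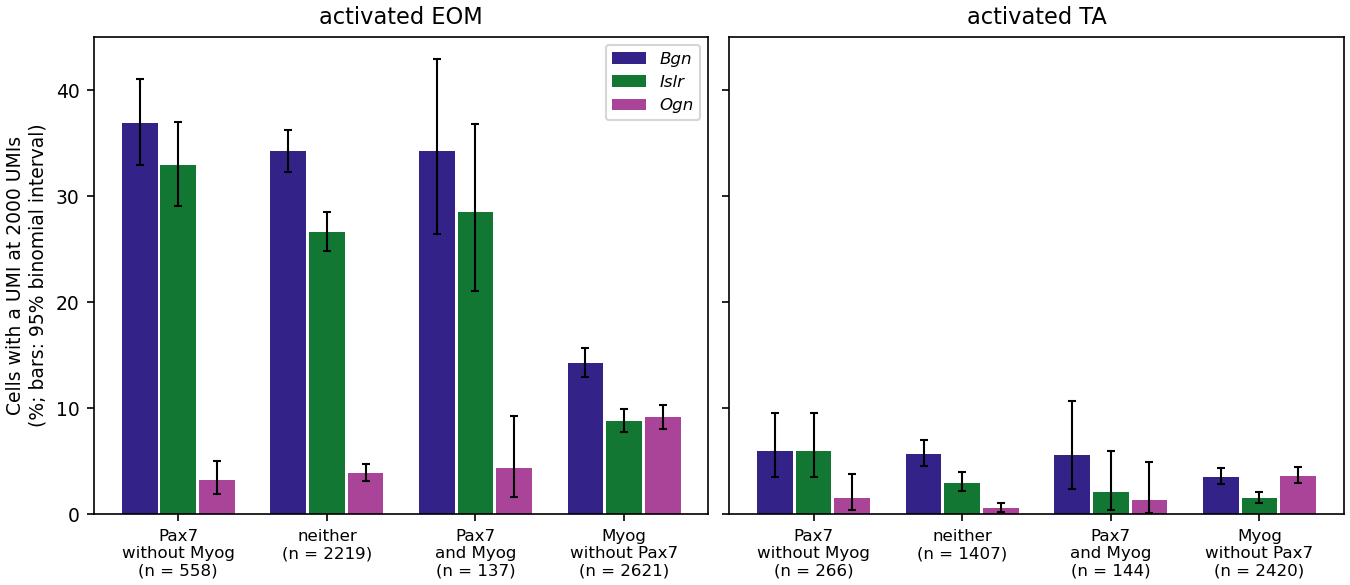
Share of activated cells with a UMI of Bgn, Islr or Ogn (%, cells thinned to 2000 UMIs, bars with exact 95% binomial intervals) in 4 classes by Pax7 and Myog. In EOM, Bgn is at 34.2% to 36.9% in the 3 classes with Pax7 or without Myog and at 14.3% in cells with Myog alone, where Ogn has its highest share, 9.16%.

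Crossing the markers showed where the split lay. In activated EOM, Bgn was in 36.9% of 558 cells with Pax7 and no Myog, in 34.3% of 137 cells with both, in 34.2% of 2219 cells with neither and in 14.3% of 2621 cells with Myog alone. The intervals of the first 3 classes overlapped one another and none reached the last. Islr was in 33.0%, 28.5%, 26.6% and 8.81% of the same classes. Ogn was in 3.23%, 4.38%, 3.88% and 9.16%. The class with both markers had few cells and wide intervals at this depth (26.4 to 42.9 for Bgn). At 5000 UMIs, with 510 such cells, Bgn was in 52.9% of them (48.5 to 57.3), below the 63.6% (60.5 to 66.7) of cells with Pax7 and no Myog, and Islr was in 42.7% (38.4 to 47.2), below 55.4% (52.2 to 58.6). The cells with Myog alone were lower again, at 30.2% for Bgn and 21.0% for Islr.

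The split was graded by the amount of Myog. With activated EOM cells thinned to 5000 UMIs, Bgn was at 238 CPM in the 2184 cells with no Myog UMI, 201 in the 1056 with 1 to 4, 84.8 in the 698 with 5 to 14 and 49.9 in the 1476 with 15 or more. Islr was at 179, 157, 62.8 and 25.1 CPM. Ogn ran the other way, at 20.1, 23.1, 40.1 and 61.2 CPM. In CPM, the largest step of Bgn and Islr lay between the groups with 1 to 4 and with 5 to 14 Myog UMIs. The same grouping of activated TA gave 34.1, 26.3, 22.1 and 14.2 CPM for Bgn, 24.4, 11.3, 8.05 and 3.55 for Islr, and 3.24, 4.03, 7.59 and 25.6 for Ogn. At every Myog level Bgn, Islr and Ogn were higher in EOM than in TA, and no pair of intervals overlapped. Fmod was at 2.47 CPM in Myog-free activated EOM cells (27 UMIs), 1.33 in the next group (7 UMIs) and 0 UMIs above that, while Aspn had 3, 2, 3 and 9 UMIs over the 4 groups.

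**Figure D4:**
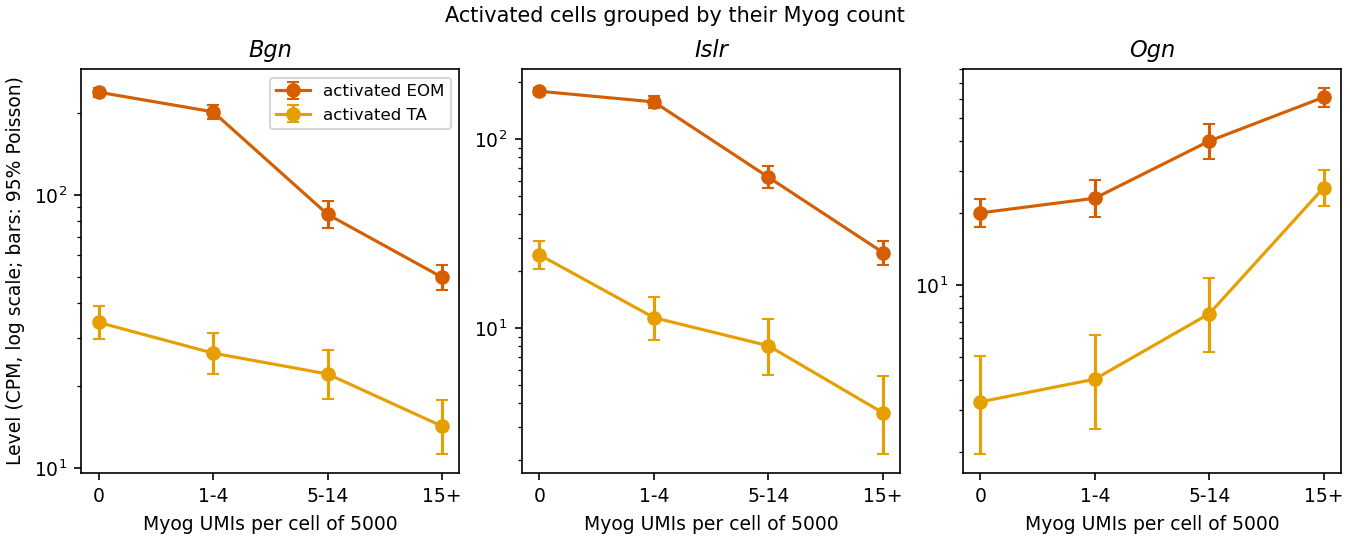
Level of Bgn, Islr and Ogn (CPM, log axes) in activated cells grouped by their Myog UMIs after thinning to 5000 UMIs, with 95% Poisson intervals. Bgn and Islr are lower and Ogn higher with more Myog in both muscles, and the EOM line lies above the TA line at every point.

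Cell division was looked at in the same way. Activated EOM cells were sorted at 2000 UMIs into dividing (a UMI of Mki67 or Top2a) and differentiating (a UMI of Myog, Mymk or Mymx). Among undifferentiated cells Bgn was at 239 CPM in dividing and 232 in other cells, and Islr at 173 and 192, with overlapping intervals. In activated TA the Bgn levels were 34.4 and 29.4 CPM, also overlapping, while Islr was at 26.3 CPM (19.3 to 35.1) in dividing and 10.6 (5.66 to 18.2) in other undifferentiated cells. Among differentiating cells Bgn was at 134 CPM in dividing and 71.2 in other cells. Ogn reached 67.0 CPM in cells that were differentiating and not dividing, against 25.2 in cells that were both and 17.4 and 22.4 in undifferentiated cells. In activated TA, Ogn was at 26.2 CPM in cells differentiating and not dividing and at 3.27 to 8.54 in the other 3 classes. The difference between muscles remained within a class: over cells without Myog, Mymk or Mymx the EOM to TA log2 ratio was 2.78 for Bgn and 3.00 for Islr, and over cells without Mki67 or Top2a it was 2.55 and 3.05, against 2.67 and 3.03 over all. Ogn was at 2.70 and 1.51 in these 2 selections, against 1.65 over all, but in cells without Myog, Mymk or Mymx it reached only 18.7 CPM.

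In quiescent EOM the ratios of Bgn and Islr by Pax7 were closer to 1. Bgn was in 40.5% of 1359 cells with a Pax7 UMI and 34.1% of 2155 without (ratio 1.19, 1.09 to 1.29), and Islr in 29.9% and 22.3% (1.34, 1.20 to 1.51). Among the fewer cells with at most 5% mitochondrial UMIs, Islr turned to 0.890. Prelp (1.18, 0.995 to 1.40), Ogn (0.850 to 1.18), Dpt (1.04, 0.938 to 1.15) and Dcn (0.901, 0.554 to 1.47) had intervals that included 1, although at 5000 UMIs Prelp was at 1.36 (1.13 to 1.63). In quiescent TA, Dpt (1.13, 1.02 to 1.24) and Prelp (1.39, 1.11 to 1.74) had intervals above 1, while those of Bgn, Islr and Ogn included it. At 5000 UMIs Islr (1.46, 1.11 to 1.92) and Ogn (1.21, 1.03 to 1.42) were above 1 there too, and Bgn (1.18, 0.942 to 1.48) was not. Myog was found in 5 quiescent EOM cells, of which 4 had Bgn and 1 had Islr, too few for a ratio.

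The genes most like Bgn, Islr and Ogn in activated EOM were ranked by Pearson r of log thinned UMIs over 5414 cells of that 1 library, which share depth and culture, so r is a description. For Bgn the 8 highest were Mgp (0.36), Tagln2, Cald1, Ptma, Col1a2, S100a10, S100a6 and Anxa1 (0.31). For Islr they were Crip1 (0.44), Mgp (0.41), Col1a2, Cald1, S100a10, Marcks, Anxa5 and Mest (0.31). Both lists held Mgp, which encodes the matrix Gla protein, the type I collagen gene Col1a2, the actin-binding caldesmon gene Cald1 and S100a10. For Ogn they were sarcomere genes and a muscle transcription factor: Myl1 (0.26), Myh3, Mef2c, Actc1, Myl4, Neb, Tnni1 and Tnnt2 (0.23), and in activated TA the same 8 had r of 0.15 to 0.27 with Ogn. Myog, named here after its value was seen, had the lowest r of 7018 genes with Bgn (-0.39) and with Islr (-0.38). In quiescent EOM the highest were Igfbp5, an IGF-binding protein gene, with Islr (0.38, and 0.24 in quiescent TA) and Crip1 with Bgn (0.29). Bgn and Islr had an r of 0.23 there and 0.25 in activated EOM. Prelp and Ogn had no gene above 0.20 in either quiescent library.

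Markers of other cell types moved with some of these differences. The 10 fibroblast markers summed to 1417 and 1529 CPM in quiescent EOM and TA and to 202 and 141 CPM in the activated libraries, all but Pi16 in activated TA were detected, and most of the sum was Col3a1 and Gsn, each found in most quiescent cells. Pdgfra was at 0.229 CPM or less throughout. Without cells holding 2 or more of these markers, 659, 353, 2450 and 1890 cells were left. The quiescent EOM to TA log2 ratios were then 2.01 for Bgn and 2.35 for Islr and the activated ones 2.47 and 3.03. Gsn was in 3036, Serping1 in 2821 and Col3a1 in 2140 of the 3596 quiescent EOM cells. The selection thus does not separate fibroblasts from muscle stem cells, and the part of fibroblasts in these ratios was not tested. The same selection moved the activated to quiescent log2 ratios in EOM from -0.90 to -1.17 for Bgn and from -0.62 to -1.38 for Islr, past 2-fold lower in both cases. The 9 mural or smooth muscle markers summed to 454 CPM in quiescent EOM (8 detected, Myh11 at 0) and 271 in quiescent TA, and to 2100 and 1204 in the activated libraries, mostly Acta2. Pdgfrb was at 5.49, 2.88, 30.7 and 1.07 CPM. In quiescence Acta2, Cspg4 and Mcam were also higher in EOM, while Rgs5 (2.17 against 5.04 CPM), Kcnj8, Abcc9, Notch3 and Myh11 were higher in TA. After culture Cspg4 (2.95 against 9.07 CPM) and Kcnj8 were higher in TA and the rest of the list in EOM. The part of mural or smooth muscle cells in the Bgn and Islr differences was not tested. The 7 tendon markers summed to 13.1 to 181 CPM, the 8 endothelial ones to 5.77 to 7.94, the 6 glial ones to 6.71 to 15.6 and the 7 immune ones to 1.44 to 20.6, with Ptprc at 0 in every library.

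Of 11 other genes of the wider family, 2 reached 5 CPM. Ecm2, a decorin-related matrix gene, was at 14.1, 5.49, 0.236 and 0.205 CPM in the usual order, and Omd (osteomodulin) at 4.06, 5.10, 0.570 and 0.312 CPM. Both were thus genes of quiescent cells like Dpt and Prelp, Ecm2 higher in EOM (ratio 2.57, 2.00 to 3.33). The other 9 stayed under 5 CPM in every library.

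Other proteoglycans were higher in quiescent EOM in 3 of 8 measurable cases and lower in 0 (median log2 ratio 0.51), beside 2.84% and 2.51% of all features. These were Vcan, encoding the large proteoglycan versican, at 7.04-fold (5.83 to 8.56), and the syndecan genes Sdc1 (6.53-fold, 5.23 to 8.24) and Sdc3 (7.18-fold, 5.26 to 10.0). In activated cells 0 of 7 were apart. Against quiescent TA, 4 of 8 were higher in activated TA and 2 lower, beside 29.9% and 24.2% of all features, led by Sdc3 at 11.4-fold and Sdc1 at 5.28-fold, while against quiescent EOM 0 of 8 were higher in activated EOM and 2 lower, beside 27.0% and 24.0%. Sdc4, a syndecan gene of quiescent muscle stem cells, was at 1760 and 2485 CPM in quiescent cells and 49.2 and 47.6 CPM in activated ones, and Srgn (serglycin) was at 20.4 and 24.2 CPM and then at 0.0977 and 0.244 CPM.

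SLRP partners and receptors were taken as collagens, elastic fibre genes, TGF-beta and BMP ligands and signalling receptors. Of 17 measurable genes 2 were at least 2-fold higher in quiescent EOM and 1 lower (median 0.03), beside 2.84% and 2.51% of all features. Col1a2 was at 2.59-fold (2.32 to 2.89) and Col6a2 at 2.18-fold (1.94 to 2.46), and the TGF-beta ligand gene Tgfb2 was at 0.367 (0.336 to 0.400). In activated cells 4 of 11 were higher and 0 lower (median 0.55), beside 1.94% and 0.906% of all features. The 4 were Col6a1 at 13.8-fold, Col1a2 at 7.18-fold, Col5a1 at 2.67-fold and the fibrillin gene Fbn1 at 2.27-fold. After culture 10 of 17 were lower and 2 higher in EOM, and 12 of 16 lower and 1 higher in TA, where 24.0% (EOM) and 24.2% (TA) of all features were lower and 27.0% and 29.9% higher. The medians were -1.43 and -1.63. Col1a2 was the gene higher in both, at 7.54-fold and 2.72-fold, with Tgfb2 at 2.44-fold in EOM. The lowest were Egfr (0.0562) and Bmp4 (0.0750) in EOM and Bmp4 (0.0128) and Col6a1 (0.0230) in TA.

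Of genes that process or cleave matrix proteins, 0 of 7 measurable ones were at least 2-fold apart between the quiescent muscles (median log2 ratio 0.41). Over all features 2.84% were higher and 2.51% lower in EOM there. Among activated cells 3 of 5 were higher in EOM (median 1.55), beside 1.94% of all features. These were Mmp2, a gelatinase gene, at 12.0-fold, Pcolce, which encodes an enhancer of procollagen cleavage, at 3.34-fold, and the membrane protease gene Mmp14 at 3.15-fold. After culture Pcolce2 was higher in both muscles, at 2.88-fold and 2.63-fold, and Pcolce in EOM at 2.12-fold. In EOM 4 of 8 were lower, led by Adamts5 (0.0957) and Htra1 (0.154), and in TA 5 of 6, led by Mmp2 (0.0198) and Adamts5 (0.153). Over all features 24.0% were lower in EOM and 24.2% in TA. Both Adamts5 and Htra1 encode secreted proteases that act on matrix. Of 23 enzymes that build glycosaminoglycan chains 1 to 3 were measurable in a comparison. Between muscles 0 of 3 in quiescence and 0 of 1 after culture were apart. Beside them, 2.84% and 1.94% of all features were higher in EOM and 2.51% and 0.906% lower. Lower in culture were 1 of 2 in EOM (Csgalnact2, 0.318) and 2 of 3 in TA (Csgalnact2, 0.319, and Csgalnact1, 0.00903). The shares of all features lower in culture were 24.0% and 24.2%. With so few measurable genes, these counts do not set the list apart.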

How the data were processed

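Droplet single-cell RNA was measured in 4 libraries. The deposited files hold UMI counts of each gene in each barcode, which the authors made with Cell Ranger 3.0.2; both this tool and the build mm10 come from the submitters' processing notes. Not given in the sources used here are the annotation release, the cell-calling rule and the use of strand.

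Barcodes were kept with at least 500 genes and at most 10% mitochondrial UMIs. Scrublet (scanpy 1.11.5) called 1, 0, 0 and 0 doublets by its own threshold and so did not work; the highest scores were removed by rank, at 0.8% per 1000 barcodes, which took 139, 161, 433 and 274 barcodes passing the other filters. Each library was clustered on its own (Leiden, igraph 0.11.9; 2000 variable genes, 30 components, 15 neighbours, resolution 1). A cluster was named from at least 3 listed markers 4-fold up when no other list had as many markers among its 10 leading genes, a condition set after the clusters were seen. It removed 16 endothelial-like cells of quiescent TA.

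UMIs were summed over kept cells and scaled to CPM; ratios carry exact Poisson intervals, and log2 ratios a pseudocount of 1 CPM. Calls are 2-fold on that log2 scale at 20 CPM or more in either library. For a bound on a ratio, a gene at 0 was set to 3 counts. Cells were thinned without replacement to 2000 UMIs for shares (exact binomial intervals) and to 5000 for levels by Myog and for r. A co-detection ratio needed 20 cells with the gene and 100 in the class; its interval is a log-normal one for a ratio of shares. edgeR 4.0.16 and DESeq2 1.42.0 gave only alternative scaling factors. The sums and calls were tested on simulated data. IDs matched GENCODE vM21 for 30934 of 31055 features. One partner gene of the list, Ccn4, was not matched by symbol.

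The genes, lists and comparisons were chosen with earlier results of these data known. Beyond the 9 genes, named were other family genes at 5 CPM or more, in each list the 2 largest and 2 smallest ratios among calls, and the 8 genes most like a member. Members in fewer than 10% of thinned cells of a library were not ranked. Alternatives were other mitochondrial limits, no doublet removal, no filter, other scalings, pseudocount, CPM minimum, thinning depth and seed, and selections of cells; 2, without the top cell of a gene and without the mixed cluster, were added after the data were seen.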

Additional observations from a re-analysis of the deposited data

Results flagged for a closer look

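Fmod and Aspn, the fibromodulin and asporin genes, had EOM to TA ratios of opposite direction in the quiescent and the activated libraries. The quiescent log2 ratio minus the activated one was -2.37 for Fmod and -1.16 for Aspn, and the activated to quiescent log2 ratio in EOM minus that in TA was 2.37 and 1.16, the same 4 libraries read the other way. The difference was not tested, with 1 library a group. The counts are small: Fmod had 4 and 38 quiescent UMIs in EOM and TA, all 4 in 1 cell and 29 of the 38 in 1 cell, and Aspn had 4 and 19, 9 of the 19 in 1 cell. Without the top cell of each library Fmod had no UMI in quiescent EOM and was at 0.589 CPM in quiescent TA.

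Fmod was also at 36.7 CPM in the 2307 barcodes of quiescent TA that the filters left out, against 2.49 CPM in kept cells. Of its 252 UMIs there, 193 were in 1 barcode and 7 barcodes had any. Dcn was at 62.1 CPM in the same barcodes, with 370 of 426 UMIs in 1 barcode, and Aspn at 4.23 CPM, with 24 of 29 in 1 barcode. Whether these are the same barcode was not tested.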

How the results depend on the processing

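With 1 library per group, counting error is covered and the spread between animals is not, and no replicate could be left out. No paired analysis was possible because each group holds 1 library. The 15 ratios called 2-fold, over 149 values under the alternatives, had 0 reversals and 0 falls below 2-fold. The number of quiescent members 2-fold apart between muscles was 2. It was 3 without the top cell of each gene or without the mixed cluster. The cluster was dropped from quiescent TA only, and its Dcn UMIs were all in the top TA cell. The number was 5 of 8 measurable members (2 higher, 3 lower) with at most 5% mitochondrial UMIs. That limit leaves 46 quiescent TA cells, and the share over all features was not taken under it. The top Dcn cell of quiescent TA, at 4.65% mitochondrial UMIs, passes that limit, and that of quiescent EOM, at 7.02%, does not. With that limit the quiescent Dcn and Prelp log2 ratios were -4.33 and -0.53. It also gave co-detection ratios in activated EOM of 1.34 for Bgn with Pax7, 0.584 for Bgn with Myog, 1.41 for Islr with Pax7, 0.543 for Islr with Myog and 1.78 for Ogn with Myog, and turned Islr with Pax7 in quiescent EOM to 0.890. The 20% limit gave 1.36 for Bgn with Pax7. Without thinning, where deeper cells hold more of every gene, the ratios with Myog were 0.835 for Bgn, 0.733 for Islr and 1.40 for Ogn. Thinning to 1000 UMIs gave 0.376 for Bgn and 0.293 for Islr, and to 5000 UMIs 0.552 and 0.461. Islr with Pax7 in activated TA was at 0.428 with 1000 UMIs. Another random seed gave 1.89 for Ogn with Myog and 1.58 for Islr with Pax7. The cause of these changes was not tested beyond the cells and UMIs each setting leaves. Low counts limit the ratios of Lum, Fmod and Aspn in all libraries and of Dpt, Prelp and Dcn in the activated ones, although those were the deepest.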
